A study of Mus musculus with 4 samples.

Results

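The mu class glutathione transferases of mouse liver are encoded by 7 genes, Gstm1 to Gstm7, which were taken by name from the deposited table of 56748 genes. All 7 were found, all on chromosome 3, and all 7 passed the filter on low values described below. They were compared between livers of 2 untreated NSG mice and livers of 2 NSG mice given JIB-04, which inhibits histone demethylases of the Jumonji family. The treated mice received 5 doses of 55 mg/kg through an oral gavage, 2 in each week. The controls are labelled untreated and no vehicle is named, so an effect of gavage or vehicle cannot be told apart from that of the compound. NSG mice, in all groups, carry mutations in Prkdc and Il2rg that leave them without mature B, T and natural killer cells, and the labels give the genotype of all 4 animals as WT. The labels give no age. Each library is the liver of a different mouse, per the series' design text, and n is 2 in each group.

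Glutathione transferases join the thiol of the tripeptide glutathione to electrophilic compounds, which makes them more soluble and ready for export. The cytosolic enzymes fall into classes by sequence, and the mu class enzymes are dimers that handle epoxides, quinones and aryl halides. In liver they belong to the conjugating arm of drug metabolism, and several genes of the family are known to respond to activators of the nuclear receptors PXR and CAR and of the transcription factor NRF2.

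Values are FPKM, fragments scaled to gene length and library size, as deposited. The reads behind them could be recovered and came to between 36469514 and 43283827 per library. Genes with a mean of at least 1 FPKM were tested with limma on log2(FPKM + 1), and a gene was called at an adjusted p under 0.05, adjusted over all 10819 genes tested. The 10 hepatocyte markers were present in all libraries, and their summed FPKM was 74808 and 70825 in untreated livers 1 and 2 against 52335 and 44416 in JIB-04 livers 1 and 2 (median log2 change of the 10 genes -0.24). Alb alone held most of each of these sums, at 46658 and 46858 FPKM in untreated and 31689 and 22910 in JIB-04 livers 1 and 2. Of the 10 changes 1 was positive, that of Fgb (log2 change 0.29). In these bulk samples fewer cells of a type and less RNA per cell cannot be told apart. Of 47 tested markers of liver cell types 0 were called by limma, 8 had an unadjusted p under 0.05 and 4 were called by voom on the recovered reads, where 15.5% of all tested genes had an unadjusted p under 0.05 and 4.77% were called by voom. Macrophage markers summed to 592 and 502 FPKM in untreated and 422 and 523 in JIB-04 livers, with 0 of 12 changes positive (median -0.17). Stellate cell and fibroblast markers summed to 67.7 and 50.5 against 48.4 and 46.5, without overlap, and 2 of 7 tested changes were positive. Dcn alone held 40.7 and 30.1 FPKM in untreated and 29.0 and 26.3 in JIB-04 livers 1 and 2. Endothelial markers summed to 123 and 101 against 101 and 108, and cholangiocyte markers to 40.6 and 34.8 against 36.4 and 43.9, both with overlap. The 10 lymphocyte markers summed to between 0.972 and 1.51 FPKM, with Ms4a1, Cd3d, Cd3e and Ncr1 among those at 0 in every library. Red cell and neutrophil markers summed to 2978 and 1852 in untreated and 699 and 1853 in JIB-04 livers 1 and 2, and 1 of the 7 tested had a positive change (median -1.08). That one was the neutrophil gene S100a8, at 6.68 and 2.40 against 36.3 and 63.0 (limma adjusted p = 0.131). Its partner S100a9 was at 18.7 and 4.01 against 7.51 and 8.45, the globin gene Hba-a2 at 15.0 and 8.25 against 1.33 and 3.43 (adjusted p = 0.185), and Ngp, Camp and Ly6g were under 1 FPKM in every library. The markers named here were chosen after their values were seen. The part of these levels in the Gstm results was not tested.

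The family occupies 149 kb of chromosome 3 in build GRCm39, from 107803137 to 107952210. In order along the chromosome the genes are Gstm5, Gstm7, Gstm6, Gstm3, Gstm2, Gstm1 and Gstm4, and Gstm5 alone is on the plus strand. Gstm5 (ENSMUSG00000004032) spans 107803137 to 107806002, Gstm7 (ENSMUSG00000004035) 107833650 to 107839133, and Gstm6 (ENSMUSG00000068762) 107846163 to 107851065. Gstm3 (ENSMUSG00000004038) spans 107871012 to 107876599, Gstm2 (ENSMUSG00000040562) 107889018 to 107893769, Gstm1 (ENSMUSG00000058135) 107919571 to 107925289, and Gstm4 (ENSMUSG00000027890) 107947724 to 107952210. All 7 are annotated as protein-coding, and values are for whole genes. Promoter sequences for all 7 genes were read from RefSeq (GRCm38.p6), as 12 windows from 250 bases before to 50 after an annotated start. To set called genes beside one that was not called, the bases just before the start are shown for the called genes Gstm3, Gstm2 and Gstm4 and for Gstm5, with a shorter stretch for Gstm1. They lie at chr3:107969175-107969274 (minus strand), chr3:107986421-107986520 (minus), chr3:108044860-108044959 (minus), chr3:107895754-107895853 (plus) and chr3:108017819-108017848 (minus), in that order. Each is written 5′ to 3′ on the gene's strand and ends at the base before an annotated start. Capitals mark letters of 5 searched motifs.
Gstm3: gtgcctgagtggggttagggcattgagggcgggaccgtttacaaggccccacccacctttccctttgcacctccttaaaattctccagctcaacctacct
Gstm2: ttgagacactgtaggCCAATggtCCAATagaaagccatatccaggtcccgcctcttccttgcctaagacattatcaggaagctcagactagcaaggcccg
Gstm4: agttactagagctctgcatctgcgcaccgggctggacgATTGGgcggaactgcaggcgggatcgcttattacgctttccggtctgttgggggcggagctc
Gstm5: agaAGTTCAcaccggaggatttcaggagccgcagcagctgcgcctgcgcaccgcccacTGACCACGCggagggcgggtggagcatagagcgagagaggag
Gstm1: TATAAAgtcacaactccaaacacacAGGTC

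The motifs were searched on both strands of each window. The core of the antioxidant response element, TGACNNNGC, was found in windows of Gstm5 and Gstm7 and in 12.4% of all 32851 RefSeq windows. Of the 7 genes, Gstm1 alone held AGGTCA, a sequence bound by nuclear receptors, and 16.3% of all windows hold it. The last base of the match is the first transcribed one from 1 annotated start, and the gene's other window lacks AGGTCA. The related AGTTCA was found in Gstm5 (14.0% of all windows). The TATA box letters TATAAA were found in Gstm5, Gstm7 and Gstm1 (13.6% of all windows). Their positions from the start differed, at 41 within the transcribed part in Gstm5, -231 in Gstm7 and -30 in Gstm1. CCAAT was found in Gstm7, Gstm6, Gstm2, Gstm1 and Gstm4 (37.4% of all windows). The Gstm3 window held none of the 5 motifs, which says only that these letters are not in that window. The shares count windows, and a gene can have several, some of them overlapping. By window, TGACNNNGC was in 2 of the 12, AGGTCA in 1, AGTTCA in 1, TATAAA in 3 and CCAAT in 10. These matches are a description of the sequences and were not tested for use.

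JIB-04 liver held more Gstm RNA than untreated liver, and the family's make-up differed. The summed level of the 7 genes was 774 and 1001 FPKM in untreated livers 1 and 2, against 6061 and 7003 in JIB-04 livers 1 and 2. The group means were 888 ± 161 and 6532 ± 666 (SD, n = 2), a 7.36-fold difference. As a share of all recovered reads the family took 0.116% and 0.154% in the untreated libraries and 0.843% and 0.990% in the JIB-04 libraries. The groups did not overlap in either measure. No test is given for a sum over chosen genes.

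Of the 7 genes 4 rose and 0 fell, while 3 did not pass the test, where 2.14% of all tested genes were called (1.53% higher and 0.619% lower). These were 165 higher and 67 lower genes, or 142 and 92 once values were rescaled with the 50 most abundant genes and all mitochondrial ones left out. Most of these calls were lost without JIB-04 1 or without JIB-04 2, so a call lost there is not particular to any gene. The Gstm genes that rose were Gstm3, Gstm1, Gstm2 and Gstm4. The median log2 change of the 7 was 1.47, beside 0.01 over all genes tested. The groups did not overlap in 5 of the 7, with JIB-04 livers higher in each of them. Over all tested genes 46.4% did not overlap, and 24.6% did so with JIB-04 higher.

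**Figure D1:**
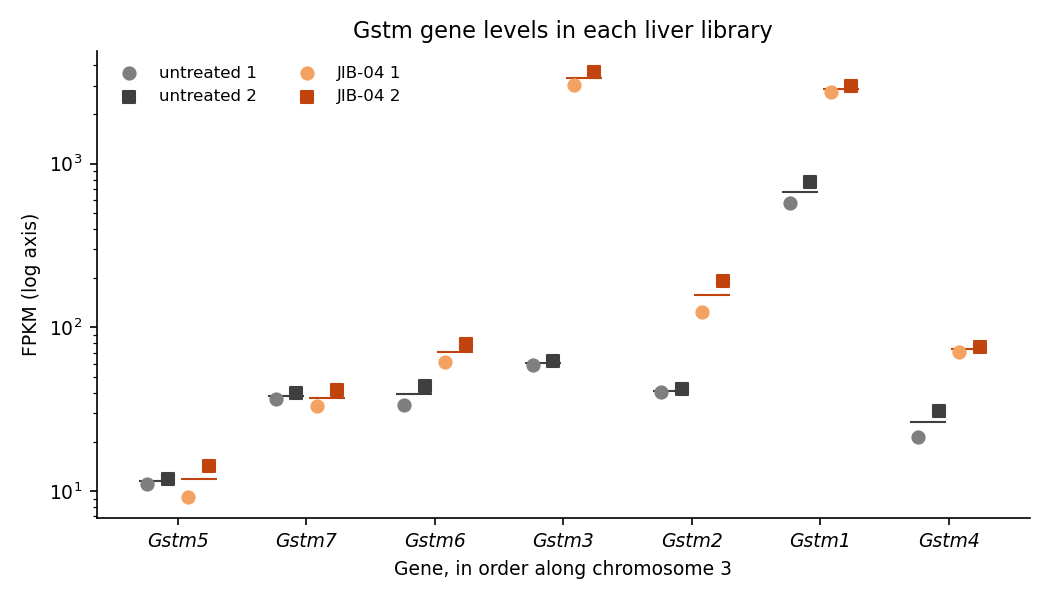
FPKM on a log axis of the 7 Gstm genes in each of the 4 libraries, in order along chromosome 3, with short lines at the group means. Gstm3 goes from near 60.8 FPKM in both untreated livers to 3019 and 3633 in the JIB-04 livers, while for Gstm5 and Gstm7 the groups overlap.

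Gstm3 had the largest difference. Its level was 59.3 and 62.3 FPKM in untreated livers 1 and 2, and 3019 and 3633 in JIB-04 livers 1 and 2. Both JIB-04 livers were at least 48.5 times as high as either untreated liver. The means were 60.8 ± 2.09 and 3326 ± 434 (SD, n = 2), 54.7-fold apart, with a log2 change of 5.74 (SE 0.149, 95% interval 5.39 to 6.10, limma adjusted p = 1.92e-05). Reads numbered 2852 and 3084 for the untreated and 169697 and 174900 for the treated livers. Among all genes of a library ranked by FPKM, Gstm3 stood 732nd and 691st in the untreated livers and 19th and 16th in the JIB-04 livers. The call held in all 14 alternative analyses, with a highest adjusted p of 0.00582.

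Gstm1, the most abundant mu class gene of untreated liver, was at 571 and 770 FPKM in untreated livers 1 and 2. It was at 2743 and 2967 in JIB-04 livers 1 and 2, and the lower JIB-04 liver had 3.56 times the level of the higher untreated one. The means were 671 ± 141 and 2855 ± 158, 4.26-fold apart, with a log2 change of 2.10 (SE 0.185, 95% interval 1.66 to 2.54, limma adjusted p = 0.00453). Behind these levels stood 30863 and 42864 reads for the untreated and 173207 and 160455 for the treated livers. The gene was no longer called once JIB-04 1 (adjusted p = 0.0955) or JIB-04 2 (0.114) was left out or the filter on low values was dropped (0.102), and over the 14 alternatives the adjusted p ran from 1.4e-05 to 0.114.

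Gstm2 was at 40.3 and 41.9 FPKM in untreated livers 1 and 2, and at 125 and 192 in JIB-04 livers 1 and 2. The untreated livers were close to each other and the JIB-04 livers were spread apart. The means were 41.1 ± 1.14 and 158 ± 47.5, 3.85-fold apart (log2 change 1.89, SE 0.210, 95% interval 1.37 to 2.40, limma adjusted p = 0.0146). Gstm2 was no longer called once untreated 1 (adjusted p = 0.0599), untreated 2 (0.0537) or JIB-04 2 (0.0628) was left out or the filter was dropped (0.169), and the adjusted p ran from 0.000434 to 0.169 over the alternatives.

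Gstm4, at the far end of the cluster, was at 21.5 and 31.1 FPKM in untreated livers 1 and 2, and at 70.3 and 76.3 in JIB-04 livers 1 and 2. The means were 26.3 ± 6.76 and 73.3 ± 4.21, 2.79-fold apart (log2 change 1.47, SE 0.184, 95% interval 1.03 to 1.91, limma adjusted p = 0.0176). Leaving out JIB-04 1 (adjusted p = 0.151) or JIB-04 2 (0.197), or dropping the filter (0.2), ended the call, and the adjusted p ran from 0.000572 to 0.2 over the alternatives.

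The other three genes did not pass the test. Gstm6 was at 33.8 and 44.1 FPKM in untreated livers 1 and 2 and at 61.7 and 79.7 in JIB-04 livers 1 and 2, and its groups did not overlap. Its log2 change was 0.85 (SE 0.184, 95% interval 0.40 to 1.29, limma adjusted p = 0.0802), and it was called in 3 of 14 alternatives. Among those were a filter at a mean of 5 FPKM (adjusted p = 0.0498) and voom on recovered reads (0.0181), and the highest adjusted p was 0.372.

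Gstm7 was at 36.7 and 39.7 FPKM in untreated livers 1 and 2, and at 32.9 and 41.6 in JIB-04 livers 1 and 2. Its log2 change of -0.04 had a 95% interval from -0.40 to 0.31 (limma adjusted p = 0.934). Gstm5, whose relatives are known from brain and testis, was at 11.1 and 11.9 in untreated livers 1 and 2 and at 9.25 and 14.3 in JIB-04 livers 1 and 2. Its log2 change of 0.01 had a 95% interval from -0.48 to 0.49 (adjusted p = 0.994). For both genes the untreated values lay between the JIB-04 values, and the sign of the small change turned in some alternatives. At their upper bounds these intervals lie below the lower bounds for Gstm1 to Gstm4, but a difference in change between members was not tested. The start of Gstm5 overlaps 4933431E20Rik, a noncoding gene on the opposite strand at 0.315 to 0.568 FPKM, and the labels do not say whether counting used strand.

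The order of levels within the family differed between the groups. In untreated liver the means ran from Gstm1 through Gstm3, Gstm2, Gstm6, Gstm7 and Gstm4 to Gstm5. The values of Gstm2, Gstm6 and Gstm7, between 33.8 and 44.1 FPKM, overlapped from one neighbour to the next, and the other neighbours did not overlap. In JIB-04 liver the order was Gstm3, Gstm1, Gstm2, Gstm4, Gstm6, Gstm7 and Gstm5, with an overlap between Gstm4 and Gstm6 only. Gstm3 had 0.104 and 0.0808 times the level of Gstm1 in untreated livers 1 and 2, and 1.10 and 1.22 times in JIB-04 livers 1 and 2.

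Gstm1 alone accounted for 73.8% and 76.9% of the family's FPKM in untreated livers 1 and 2 and 45.3% and 42.4% in JIB-04 livers 1 and 2. Gstm3 made up 7.66% and 6.22% of it in untreated and 49.8% and 51.9% in JIB-04 livers. The share of Gstm1 and Gstm3 together was 81.5% and 83.2% against 95.1% and 94.2%. Without Gstm3, the other 6 genes summed to 827 ± 159 and 3206 ± 232 FPKM (SD, n = 2), 3.88-fold apart. Without Gstm1 as well, the other 5 summed to 156 ± 17.9 and 351 ± 74.2, 2.25-fold apart. Gstm7 and Gstm5 took a smaller share in JIB-04 livers (0.568% and 0.179% on average, against 4.35% and 1.31%), although their levels overlapped between the groups.

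**Figure D2:**
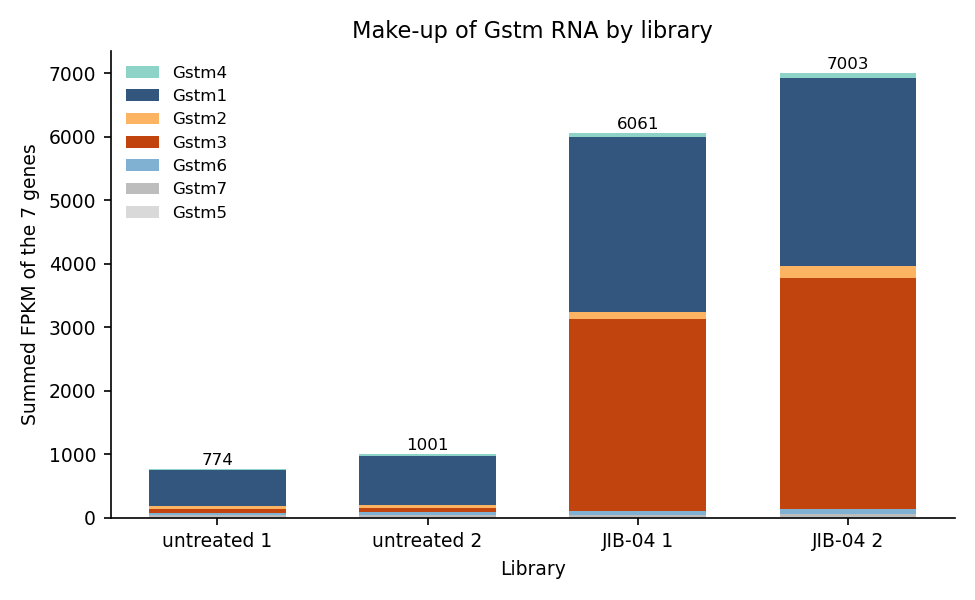
Stacked bars of the FPKM of the 7 Gstm genes in each library, with the sum printed above each bar. The sums are 774 and 1001 in untreated and 6061 and 7003 in JIB-04 livers, and the Gstm3 segment grows from 7.66% and 6.22% to 49.8% and 51.9% of the bar.

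Along the chromosome, the called genes were neighbours. Gstm5 and Gstm7, at one end, had intervals that held 0, Gstm6 beside them was positive without passing the test, and the 4 genes from Gstm3 to Gstm4 were the ones that rose. Within 200 kb of the cluster's ends the table lists 32 other genes, of which 6 passed the filter on low values. Of those 6, 0 were called by limma, 0 had an unadjusted p under 0.05 and 0 were called by voom. On one side were Ahcyl1 (16.5 and 16.5 FPKM on average in untreated and JIB-04 liver) and Csf1, the gene of the macrophage growth factor (5.00 and 4.79). On the other were Ampd2, an AMP deaminase (5.15 and 5.70), and Gnai3, a G protein subunit (33.2 and 30.9), followed by Amigo1 (2.35 and 1.55) and Cyb561d1 (1.47 and 1.39). Their log2 changes ran from -0.39 for Amigo1 to 0.13 for Ampd2. Between the Gstm genes lie 9 other listed genes, pseudogenes and small or noncoding RNAs, none above 0.370 FPKM in any library. The highest was the noncoding gene Gm12498, between Gstm1 and Gstm4. It had 0 and 2 reads in untreated and 39 and 17 in JIB-04 livers 1 and 2, and was too low to be tested.

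**Figure D3:**
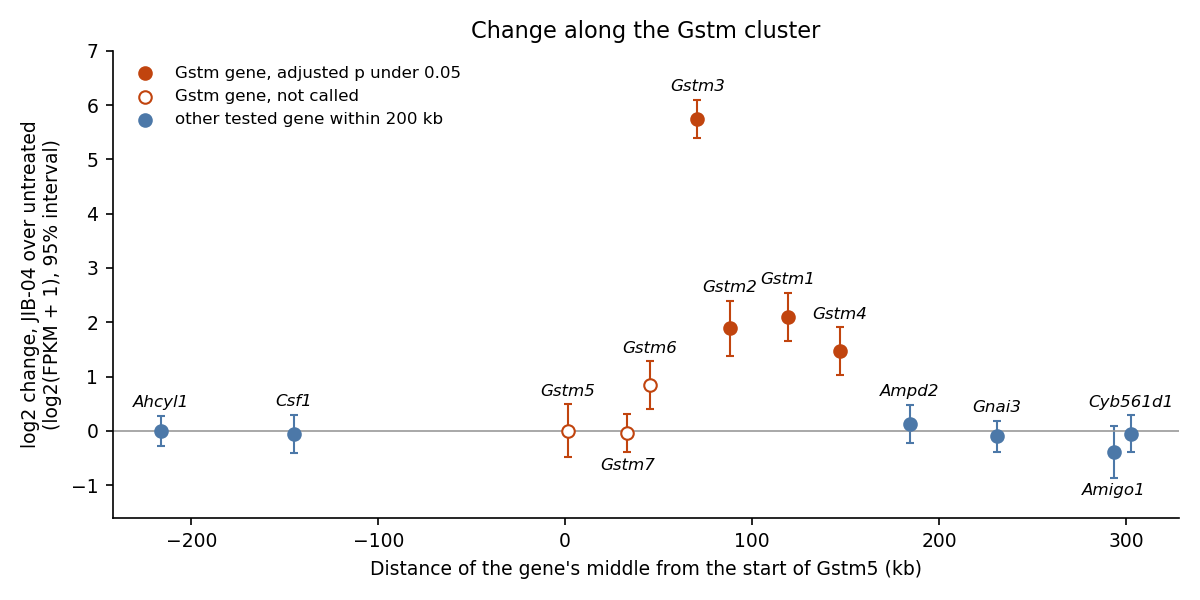
Log2 change of JIB-04 over untreated liver, with limma's 95% interval, for the 7 Gstm genes and the 6 other tested genes within 200 kb, by distance in kb from the start of Gstm5. The 4 filled red points, from Gstm3 at 5.74 to Gstm4 at 1.47, follow one another, and the blue points on both sides lie between -0.39 and 0.13.

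Members of the family are alike in sequence, so reads can be hard to assign. Transcripts from GENCODE M21 (GRCm38) were used, the longest protein-coding one per gene. The best local alignments between members ran from 70.9% identity (Gstm5 with Gstm6) to 87.1% (Gstm2 with Gstm1). Of all 50-base windows of the transcript, 28.8% in Gstm3 and 23.1% in Gstm1 also occur exactly in a transcript of another gene, as do 11.5% in Gstm6 and 9.36% in Gstm2. The share is 0% for Gstm4, Gstm5 and Gstm7. With windows of 100 bases it is 13.8% for Gstm3, 7.73% for Gstm1, 2.41% for Gstm6 and 0.622% for Gstm2. Gstm6 shares 6.73% of its 50-base windows with Gstm3, and its difference between the groups, 31.8 FPKM, equals 0.973% of that of Gstm3, 3266 FPKM. How the authors treated reads that fit several genes is not stated in the labels or the table, and the part of shared reads in the values of the Gstm genes was not tested.

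Processed pseudogenes, copies of spliced RNA set back into the genome, carried part of the shared sequence. They were chosen after their values were seen. Gstm2-ps1 (chromosome 5, 116770967 to 116771623) is named after Gstm2, but its transcript aligned to Gstm1 with 97.9% identity and to Gstm2 with 85.8%. It was at 18.3 and 27.0 FPKM in untreated livers 1 and 2 and at 145 and 167 in JIB-04 livers 1 and 2 (log2 change 2.75, limma adjusted p = 0.00282). Its call ended without JIB-04 1 (0.0802) and without JIB-04 2 (0.0933), and with no filter on low values (0.0827). Relative to Gstm1 its level was 3.20% and 3.50% in untreated and 5.28% and 5.65% in JIB-04 livers. Gm8834 (chromosome 10, 34774252 to 34774816) aligned to Gstm3 with 97.9% identity, and holds 202 of the 1262 windows of 50 bases in Gstm3. It was at 2.41 and 3.51 FPKM in untreated livers and at 57.3 and 68.3 in JIB-04 livers 1 and 2 (log2 change 4.02, adjusted p = 0.000171, called in 14 of 14 alternatives). Relative to Gstm3 this was 4.07% and 5.64% in untreated and 1.90% and 1.88% in JIB-04 livers. A further one, Gm6665, which shares windows with Gstm2 and Gstm1, was at 4.56 and 6.64 against 22.3 and 26.1 (adjusted p = 0.00555, or 0.0955 and 0.123 without JIB-04 1 and 2). Whether these reads came from the pseudogenes or from the Gstm genes was not tested.

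**Figure D4:**
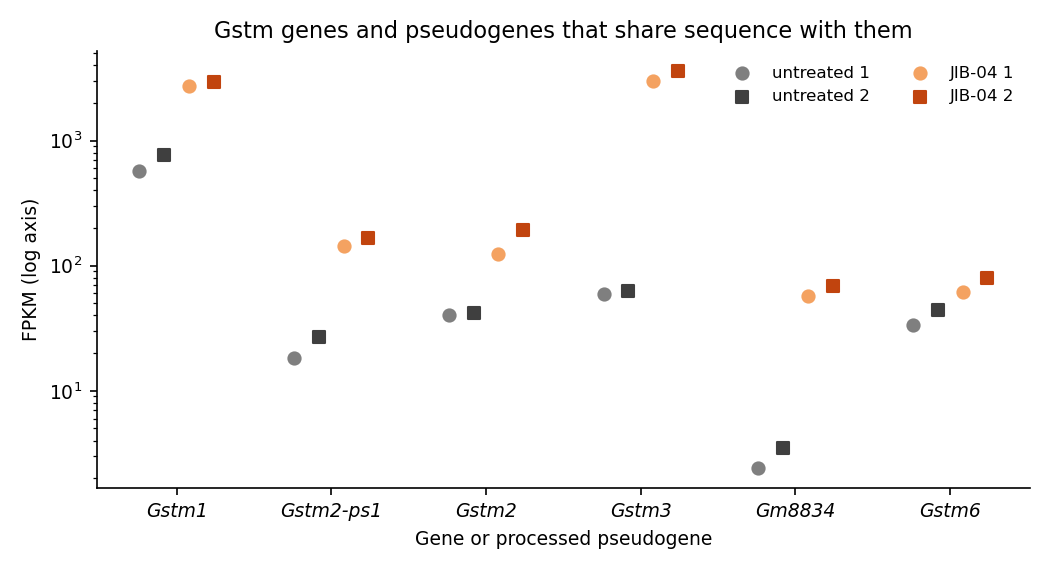
FPKM on a log axis of 4 Gstm genes and of the processed pseudogenes Gstm2-ps1 and Gm8834 in each of the 4 libraries. Gstm2-ps1 lies below Gstm1 in every library and is higher in both JIB-04 livers (145 and 167) than in both untreated livers (18.3 and 27.0), and Gm8834 lies below Gstm3 in the same way.

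The genes with the most similar profiles were found for each called member. Likeness was the Euclidean distance between log2(FPKM + 1) values over the 4 libraries after each gene's mean was subtracted. The pseudocount shrinks the changes of low genes, so a low gene with a larger fold can lie near a member. For Gstm3 the nearest were the sulfotransferase gene Sult2a1 (distance 0.618), the cytochrome P450 gene Cyp2c55 (1.10) and the aldo-keto reductase gene Akr1b7 (1.37). For Gstm1 they were Cyp26a1, which breaks down retinoic acid (0.0708), the pseudogene Gm6665 (0.175) and Ppp1r42 (0.209). Gm6665 shares 18.7% of its 50-base windows with Gstm2 and 5.26% with Gstm1, and Ppp1r42 had a mean of 0.140 FPKM in untreated and 4.07 in JIB-04 livers. For Gstm2 they were the small nucleolar RNA Snora15 (0.0413), Cyp3a25 (0.273) and Cib3 (0.306). Snora15 had 0 reads in both untreated libraries and 11 and 17 in the JIB-04 libraries. Like Ppp1r42, Akr1b7 and Cib3, Snora15 passed the filter on low values only through its JIB-04 level. Akr1b7 was at 0.362 and 0.517 FPKM in untreated livers 1 and 2 and at 38.6 and 25.9 in JIB-04 livers 1 and 2. Cib3 was at 0.536 and 0.710 in untreated livers 1 and 2 and at 3.19 and 4.82 in JIB-04 livers 1 and 2. For Gstm4 they were the carboxylesterase gene Ces2c (0.0787), the alpha class glutathione transferase gene Gsta2 (0.150) and Hapln4 (0.178). Cyp26a1 was at 4.14 and 5.54 FPKM in untreated livers and at 23.1 and 24.1 in JIB-04 livers 1 and 2. Sult2a1 was at 18.1 and 1130 FPKM on average in untreated and JIB-04 livers (62.4-fold), and Cyp2c55 at 2.32 and 377 (162-fold). Gstm3 differed 54.7-fold, and its distances were larger than those of the other called members.

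Among glutathione transferases of other classes 3 of 14 tested genes rose and 0 fell, while 11 did not pass (median log2 change 0.19), beside the 2.14% called among all tested genes. The pi class gene Gstp1 rose from 83.3 ± 7.20 to 163 ± 5.04 FPKM (SD, n = 2; limma adjusted p = 0.0195). Gsta2 rose from 2.81 ± 0.732 to 10.3 ± 0.234 (adjusted p = 0.00642). Gsta1 was called on 2 and 0 reads for untreated livers and 141 and 66 for treated ones (adjusted p = 0.0167). It passed the filter on low values only through its JIB-04 level, and without it 2 of 13 rose. None of these calls held without JIB-04 1 or without JIB-04 2, where most calls over all tested genes were lost too. Gstp1 also missed the threshold without untreated 1 (0.0698) and Gsta1 without untreated 2 (0.0537). The summed FPKM of all 21 genes of this list, tested or not, was 1686 and 1874 in untreated livers 1 and 2, above the Gstm sum. It was 2011 and 2368 in JIB-04 livers 1 and 2, below the Gstm sum. The microsomal gene Mgst1 alone held 809 and 857 FPKM in untreated and 936 and 1263 in JIB-04 livers 1 and 2.

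Genes that supply and recycle glutathione showed no change called by limma in the analysis reported, but some were called in alternatives. Of 24 tested, 0 were called by limma, 11 had an unadjusted p under 0.05 and 6 were called by voom, 3 in each direction (median log2 change -0.02). The shares over all tested genes were 15.5% at an unadjusted p under 0.05 and 4.77% by voom. Gclc, the catalytic subunit of the enzyme that starts glutathione synthesis, was at 66.1 ± 6.43 and 59.5 ± 2.33 FPKM (limma adjusted p = 0.669). Cbs, of the pathway from methionine to cysteine, was at 52.4 ± 5.78 and 30.1 ± 3.54 (adjusted p = 0.0504), and Mat1a, which makes S-adenosylmethionine in liver, at 1263 ± 39.8 and 762 ± 15.6 (adjusted p = 0.0548). Cbs passed in 5 and Mat1a in 4 of 14 alternatives. Cbs and Mat1a were lower in JIB-04 liver, but 11 of the 24 changes were positive. Gsr was at 14.5 ± 0.848 and 22.7 ± 1.55 FPKM (limma adjusted p = 0.0605), and Cth at 107 ± 16.1 and 169 ± 9.75 (adjusted p = 0.0833).

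Genes that export glutathione conjugates or trim them to mercapturates numbered 15 tested, of which 2 rose and 0 fell, while 13 did not pass the test (median log2 change 0.14, with 2.14% of all genes called). Abcc3, a basolateral exporter of conjugates, rose from 50.9 ± 12.7 to 155 ± 7.12 FPKM (SD, n = 2; limma adjusted p = 0.0125). Anpep, an aminopeptidase that can act on the cysteinylglycine of conjugates, rose from 40.1 ± 10.7 to 108 ± 14.5 (adjusted p = 0.0307). Neither passed without JIB-04 1 or without JIB-04 2, where most calls over all tested genes were lost too. The canalicular exporter Abcc2 was at 42.2 ± 2.28 and 59.2 ± 7.04 (adjusted p = 0.151).

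Among 22 tested regulators of drug metabolism genes 1 rose and 0 fell, while 21 did not pass the test (median log2 change 0.05). With 2.14% of all tested genes called by limma, 1 of 22 is near the background and is no result about these regulators as a group. By voom 3 of the 22 were called, and 5 had an unadjusted limma p under 0.05. The shares over all tested genes were 4.77% by voom and 15.5% at an unadjusted p under 0.05. Nfe2l1, a transcription factor related to NRF2, rose from 22.7 ± 1.44 to 38.9 ± 2.01 FPKM (limma adjusted p = 0.0357). It was called in 8 of 14 alternatives and missed the threshold without any one of the libraries (0.0942 and 0.136 without untreated 1 and 2, 0.165 and 0.172 without JIB-04 1 and 2). Nfe2l2, which encodes NRF2, was at 20.9 ± 1.89 and 21.5 ± 2.03 (adjusted p = 0.932). Nr1i2, which encodes PXR, was at 42.9 ± 0.952 and 46.1 ± 3.63 (adjusted p = 0.782), and Nr1i3, which encodes CAR, at 10.6 ± 3.44 and 7.18 ± 1.87 (adjusted p = 0.483). Nfe2l1 also missed it with neither trend nor robust moderation (0.0559). With no filter on low values, none of the 6 genes called in these lists passed limma (adjusted p from 0.134 to 0.233). These are RNA levels and do not measure the activity of the proteins.

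**Figure D5:**
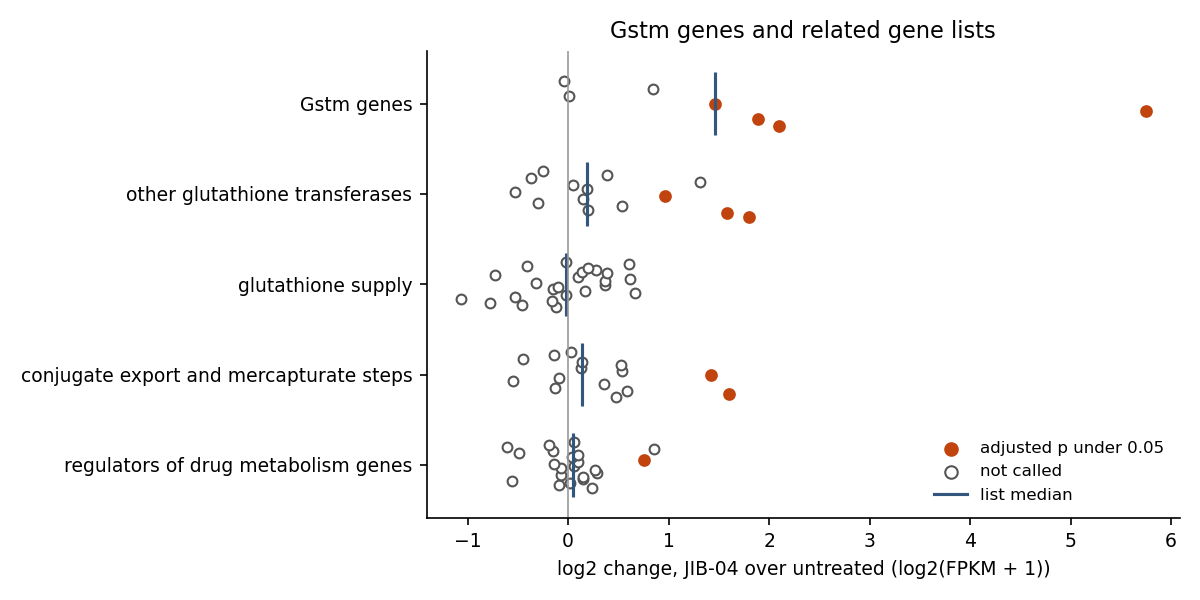
Log2 change of JIB-04 over untreated liver for the tested genes of 5 lists, with filled points for genes called at an adjusted p under 0.05 and a line at each list's median. The Gstm median is 1.47, and the medians of the other 4 lists lie between -0.02 and 0.19.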

How the data were processed

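Liver RNA of 4 mice (2 untreated, 2 given JIB-04) was extracted with Trizol and sequenced by a company, per the labels' protocols. The authors deposited FPKM values for 56748 genes with gene lengths and coordinates, and GRCm39 is the build in the submitters' processing notes. For aligner, counter, annotation release and strandedness, nothing is given in the sources used here. Multiplied by gene length and divided by 1 factor per library, 100% of the values were whole numbers of reads within a tolerance of 0.01, which gave the reads per gene and depths of 36469514 to 43283827 reads. These depths alone did not set the factors. JIB-04 2 had fewer recovered reads (36469514) than untreated 1 (36793474). Yet 1 read per kb was 0.02723 FPKM in JIB-04 2 and 0.02727 in untreated 1. Groups followed the labels' treatment. Testing used limma 3.58.1 with R 4.3.3 (trend and robust moderation, two-sided) on log2(FPKM + 1). It covered 10819 genes with a mean of at least 1 FPKM, with Benjamini-Hochberg adjustment over all of them. A run on simulated data gave every gene the same spread setting, so it cannot show how the test performs on these livers. The log2 scale with a pseudocount of 1 understates the change of low genes. An exact permutation of 2 against 2 cannot go below p = 0.333, so none is used. Alternatives were pseudocounts of 0.1 and 0.5, no filter or one at 5 FPKM, 3 other scalings, plain moderation, voom on recovered reads, a replicate block and each library left out. Sequence comparisons used GENCODE M21 and RefSeq (GRCm38.p6) with Biopython 1.88, and no coordinates were converted between builds. Genes named are all members, all tested genes within 200 kb, in each list other than markers up to 4 called genes or else the 2 of lowest p with Nr1i2, Nr1i3, Nfe2l2, Gclc and Abcc2, and the 3 nearest profiles of each called member. The pseudogenes, the markers named, Gm12498, Gsr and Cth were chosen after their values were seen. The members and lists were chosen with earlier results of these data known.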

Additional observations from a re-analysis of the deposited data

How the results depend on the processing

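Gstm3 was called in all 14 alternatives, with log2 changes from 5.61 to 5.88. Of the 7 Gstm genes, 4 were called in the analysis reported, 1 (Gstm3) without a filter on low values, and between 1 and 5 elsewhere. Leaving out 1 library each gave 1 to 3 called members: 3 (Gstm3, Gstm1 and Gstm4) without either untreated library, 2 (Gstm3 and Gstm2) without JIB-04 1 and 1 (Gstm3) without JIB-04 2. Over all genes the 232 calls became 20 without the filter, which tests 25266 genes, 516 with voom (309 higher, 207 lower), 357 with a replicate block (236 higher, 121 lower), and 23 to 156 without 1 library. With the untreated or JIB-04 group at 1 library, that library is assumed to vary like the other group. The summed Gstm level differed 6.52-fold to 8.44-fold without 1 library.

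The change of Gstm5, 0.01 as reported, turned to -0.0017 with TPM, -0.052 with the 50 most abundant and all mitochondrial genes left out of the scaling, -0.0066 with centring on the median and -0.034 with voom. Without 1 library it ran from -0.28 (without JIB-04 2) to 0.30 (without JIB-04 1), with -0.045 without untreated 1. That of Gstm7, -0.04 as reported, ran from -0.21 (without JIB-04 2) to 0.12 (without JIB-04 1) with 1 library left out, and was 0.01 without untreated 2. The cause was not tested, and neither gene was called in any alternative. The median change over all genes moved by less than 0.1 under each scaling.

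Replicate numbers give no known pairing. The within-group differences correlated at -0.0492 across 10819 genes. A replicate block gave 5 called members, with Gstm6 added (adjusted p = 0.0177). Low depth limits Gsta1, with 2 and 0 reads in the untreated libraries, and Snora15, with 11 and 17 reads in the JIB-04 libraries and 0 in the others.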
